A study of Saccharomyces cerevisiae with 6 samples.

Results

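The 2 budding yeast mutants compared here both disturb one link between a kinase and a histone chaperone. The ck2ts strain is altered in casein kinase 2 itself, and the spt6-7SA strain carries an altered form of one of the kinase's substrates, Spt6. The libraries were chosen by their labels alone: 2 labelled spt6-7SA and 2 labelled ck2ts, which is 4 of the 6 total RNA libraries of the study. The 2 wild-type (WT) libraries took no part in the tests, and their levels are given beside the mutants as a description. The comparison asks which transcript differences go with the altered kinase and which with the altered 7S-A form of Spt6.

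All groups were mat a strains described as isogenic to S288C, and all are labelled leu2D1, lys2-128d and deleted for BAR1. The ck2ts strain is labelled cka1<delta>0::KanMX6, cka2D225N::NAT, and ura3-52 carrying HHF1, PGAL1/10 and FLAG-HHT1 with URA3, with BAR1 replaced by NAT. WT carried the same histone construct and the same bar1 allele, with both kinase genes intact. The spt6-7SA strain is labelled his3D200, ura3<delta>0, BAR1 replaced by KanMX6, chromosomal SPT6 replaced by kanMX6, a centromeric URA3 plasmid with FLAG-spt6 7S-A, and IWS1-13MYC marked with HIS3. It has no histone construct in its label. Each group is 1 strain, so every difference below covers the marker genes, the plasmid, the tag on IWS1 and the histone construct as well as the kinase and Spt6, and these cannot be told apart. All strains grew in YPD at 30 °C until OD600 reached 0.5, and were then held at 39 °C for 2 h. Whether the replicates were separate cultures is not stated, and the p-values therefore reflect only how far these libraries differ, which may be technical.

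Casein kinase 2 is a constitutively active protein kinase with a pair of catalytic subunits, Cka1 and Cka2 in yeast, and a pair of regulatory subunits, Ckb1 and Ckb2. It phosphorylates many proteins in the nucleus and cytoplasm. Spt6 travels with RNA polymerase II, reassembles nucleosomes behind it and binds Spn1 (Iws1) through its acidic N-terminal region. Loss of Spt6 function is known to let transcription start inside genes on either strand. Such transcripts can add antisense reads and reads at the 3' end of genes, and both were counted here. The counts hold no start sites, so where antisense transcripts began and what gave rise to them was not tested.

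Depth was similar in the 4 libraries. Sense reads in annotated exons numbered 56307173 to 65546990, and antisense reads 2885016 to 3405797. Levels are given in CPM, the usual depth-scaled counts, from sense library sizes after TMM scaling (antisense CPM are antisense counts on the same scale), as mean ± SD over n = 2 libraries. Log2 differences are spt6-7SA minus ck2ts from the edgeR quasi-likelihood test with their standard error (SE), and adjusted p-values are Benjamini-Hochberg values over all genes tested, with 0.05 as the threshold.

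The genes altered by strain construction were examined first. CKA2 (YOR061W, chrXV:441534-442553, plus strand) carries the labelled change D225N, counted from the start methionine. The reference sequence (R64) around that codon is shown because it locates the kinase allele, with the aspartate codon of the reference in capitals (chrXV:442191-442223, plus strand).
CKA2: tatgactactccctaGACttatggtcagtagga
The deposited values are counts per gene and do not show the base itself. CKA2 transcript stood at 71.3 and 59.7 CPM in the ck2ts libraries and 88.8 and 95 CPM in the spt6-7SA libraries, without overlap (log2 difference 0.49, SE 0.11, adjusted p = 0.0118). CKA1, the gene of the other catalytic subunit, gave 202 and 100 sense reads in ck2ts, of which 98.0% and 99.0% lay in the 3' part, and 3289 and 3858 in spt6-7SA. CKA1 is labelled as deleted in ck2ts, and nearly all reads left there lay at its 3' end.

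Among the regulatory subunit genes, CKB1 was higher in spt6-7SA (63.2 ± 1.15 against 81.8 ± 2.13 CPM, adjusted p = 0.00943), and CKB2 did not pass (76.6 ± 9.84 and 79.7 ± 2.40 CPM). SPT6, transcribed from the plasmid in spt6-7SA, stood at 246 and 267 CPM in ck2ts against 512 and 419 CPM in spt6-7SA (log2 difference 0.86, SE 0.13, adjusted p = 0.00242), with WT between them at 388 and 350 CPM. The mutants thus differed in how much SPT6 transcript they held as well as in the labelled allele. SPN1 (IWS1), the gene tagged in spt6-7SA, did not pass (57.1 ± 4.05 and 51.3 ± 1.20 CPM).

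Several marker loci separated the mutants. LEU2, which encodes an enzyme of leucine synthesis, had 1 and 4 sense reads in ck2ts and 3161 and 3338 in spt6-7SA, although both strains bear the same leu2 label. HIS3 had 1981 and 1741 reads in ck2ts and 523 and 435 in spt6-7SA, where 98.9% and 96.8% of them lay in the 3' part of the labelled deletion allele. URA3, carried by the histone construct in one strain and by the plasmid in the other, was lower in spt6-7SA (log2 difference -0.29, adjusted p = 0.0365). The histone H4 gene HHF1 had 100 and 85 antisense reads in ck2ts, 62 and 51 in WT, and 8 and 7 in spt6-7SA, the group without the construct that carries a further HHF1. Its sense level was 137 and 135 CPM in ck2ts against 175 and 178 CPM in spt6-7SA, higher in the latter (log2 difference 0.37, adjusted p = 0.00997). LYS2 did not differ in level beyond the spread (117 ± 5.20 and 111 ± 1.69 CPM), and HHT1 likewise (228 ± 37.2 and 234 ± 13.6 CPM). BAR1 had 0 or 1 sense reads in each of the 4 libraries and was not tested. These genes were left out of the ranking of sense differences below.

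Mating-type markers were checked against the label. Both mutants expressed a-specific genes, with a summed level over 6 markers of 325 and 338 CPM in ck2ts against 788 and 726 CPM in spt6-7SA. Of the 6, 4 passed as higher in spt6-7SA, ASG7 passed as lower (log2 difference -0.92) and AGA2 did not pass. Among all genes tested, 25.1% were higher and 26.5% lower. The 5 alpha-specific markers summed to 127 and 113 CPM in ck2ts and to 119 and 108 CPM in spt6-7SA. None of the 11 markers was at 0. The near-equal alpha sums cover opposite differences. SAG1 (76.5 ± 9.07 against 40.6 ± 4.16 CPM) and MF(ALPHA)2 passed as lower in spt6-7SA, and AFB1 (14.7 ± 1.03 against 43.3 ± 3.47 CPM) as higher. STE3 and MF(ALPHA)1 did not pass. MF(ALPHA)1, the main alpha-factor gene, stood at 4.45 and 2.62 CPM in ck2ts against 4.63 and 3.68 CPM in spt6-7SA.

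In ck2ts, transcripts of nearly all mitochondrially encoded genes were close to absent, whereas spt6-7SA carried them. Summed over 18 genes the level was 306 and 2750 CPM in ck2ts, nearly all of it COX2, 3050 and 2590 CPM in spt6-7SA, and 2340 and 2630 CPM in WT. Of 17 such genes tested, 16 passed as higher in spt6-7SA and 0 as lower, beside 25.1% and 26.5% of all genes tested. COX1, the gene of cytochrome c oxidase subunit I, gave 51 reads over both ck2ts libraries and 69024 over both spt6-7SA libraries, a 1160-fold ratio of levels. COX3, for subunit III of the same enzyme, gave 12 and 26770 reads (1910-fold), and OLI1, for a subunit of the ATP synthase, 25 and 31464 (1080-fold). ATP6, another ATP synthase gene, had 0 reads in ck2ts and 1072 in spt6-7SA, at least 307-fold higher when 3 reads in the whole group are taken as the floor. Genes inside COX1 and COB introns share reads with those genes and are not independent of them. COX2 was the exception: it gave 304 and 2750 CPM in ck2ts against 200 and 121 CPM in spt6-7SA, did not pass (adjusted p = 0.131), and differed 9.04-fold between the ck2ts replicates. Which parts of the mitochondrial genome ck2ts carried, and in how many copies, was not measured. The cause of the low levels beside a retained COX2 was not tested. The nuclear genes of energy metabolism below were compared in these same libraries, and the part of the low mitochondrial transcripts in their differences was not tested.

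Across all genes, the mutants differed at 51.6% of the genes tested, in similar numbers in each direction. Of 6738 genes tested on the sense strand, 1692 (25.1%) were higher and 1785 (26.5%) lower in spt6-7SA than in ck2ts. At least 2-fold differences were found at 386 genes (5.73%) and 506 genes (7.51%), and the median log2 difference was -0.01. The common biological coefficient of variation between replicates was 0.118.

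**Figure D1:**
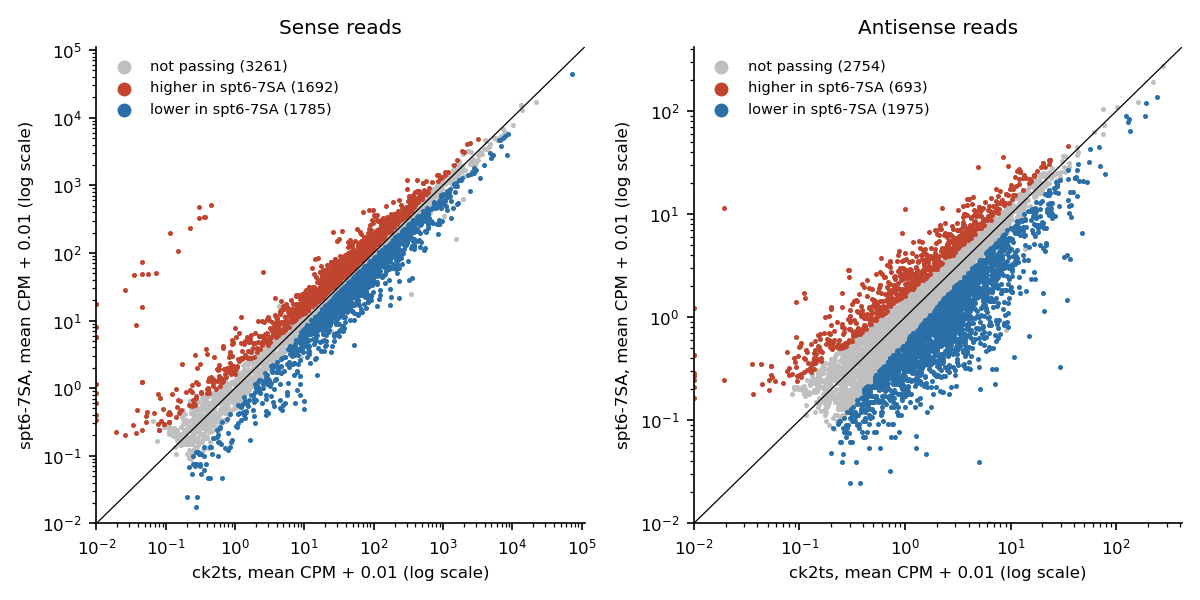
Mean level of each gene tested in ck2ts (x axis) and spt6-7SA (y axis), CPM on log scales with 0.01 added, for sense reads (left, 6738 genes) and antisense CPM (right, 5422 genes); coloured points passed the test. Sense calls fall on both sides of the diagonal (1692 higher, 1785 lower), and antisense calls mostly below it (693 higher, 1975 lower).

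The position of WT shows which mutant stood farther from the unmutated level. For 979 of the 1692 genes higher in spt6-7SA (57.9%), WT stood above both mutants, so that ck2ts was the farther one. For 967 of the 1785 lower genes (54.2%), WT stood below both, and again ck2ts was farther. WT lay between the mutants and nearer to spt6-7SA for 330 (19.5%) and 336 (18.8%) of them, and nearer to ck2ts for 194 (11.5%) and 273 (15.3%). In the remaining 189 (11.2%) and 209 (11.7%), spt6-7SA was the farther mutant, with WT on the other side of ck2ts. These are counts of mean levels, and WT was not tested against either mutant here.

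The 10 largest differences in each direction were taken among nuclear protein-coding genes that passed, had at least 10 CPM in a mutant and did not overlap between the mutants. CWP1 (YKL096W, chrXI:261132-261851), a cell wall mannoprotein gene, gave 27.2 and 24.5 CPM in ck2ts, 201 and 202 in spt6-7SA, and 157 and 163 in WT. Only the ck2ts libraries were low, 7.79-fold below spt6-7SA (log2 difference 2.96, SE 0.10, adjusted p = 2.71e-05). The same order, with WT beside spt6-7SA, held for DSE1, a daughter-cell gene of cell separation (70.3 ± 21.7 CPM in ck2ts, 401 ± 41.9 in spt6-7SA, 394 ± 6.15 in WT), and for SIT1, a siderophore transporter gene (97.3 ± 25.5, 425 ± 4.98 and 363 ± 7.87). YPR078C, an uncharacterised reading frame, had the largest difference among the higher genes (1.21 ± 0.514 and 11.1 ± 0.0293 CPM, log2 difference 3.18). TNA1, the nicotinic acid permease gene, was 5.18-fold higher (84.6 ± 8.0 and 438 ± 23.1 CPM); it overlaps YGR259C on the other strand, which was lower by 3.13 on the log2 scale.

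IMD2 and BIO2 stood apart from these. WT lay nearer to ck2ts at IMD2, and about midway between the mutants on the log2 scale at BIO2. IMD2 (YHR216W, chrVIII:554396-555967) encodes inosine monophosphate dehydrogenase, and its transcription responds to guanine nucleotides through alternative start sites. It gave 32.7 and 36.6 CPM in ck2ts, 205 and 213 in spt6-7SA, and 48.8 and 55.5 in WT, so that spt6-7SA was the high group (6.03-fold, log2 difference 2.59, SE 0.10, adjusted p = 5.21e-05). BIO2, the biotin synthase gene, gave 15.6 ± 1.14, 84.4 ± 1.89 and 36.1 ± 0.463 CPM in the same order. MFA2, an a-factor gene, was 4.58-fold higher in spt6-7SA with a wide spread (15.3 and 10.7 against 77.6 and 41.8 CPM), and its call ended without either ck2ts library (adjusted p = 0.0864 and 0.0926).

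On the other side, CTT1, TSA2 and HSP30 were low in spt6-7SA and WT and high in ck2ts. CTT1 (YGR088W, chrVII:654634-656322), cytosolic catalase, gave 249 and 213 CPM in ck2ts, 40.5 and 36.3 in spt6-7SA, and 9.14 and 12.2 in WT (log2 difference -2.59, SE 0.12, adjusted p = 0.000104). TSA2, a peroxiredoxin gene, stood at 234 ± 11.5 CPM in ck2ts, 21.2 ± 1.48 in spt6-7SA and 40.5 ± 2.82 in WT. HSP30, which encodes a stress-induced plasma membrane protein, stood at 112 ± 13.7, 16.6 ± 2.71 and 5.96 ± 1.92 CPM. For CTT1 and HSP30 spt6-7SA lay between ck2ts and WT, and for TSA2 it lay below both.

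A further set was high in ck2ts and alike in the other groups. CTF3, a kinetochore gene, stood at 372 and 339 CPM in ck2ts against 39.9 and 45.7 in spt6-7SA and 36.3 and 42.5 in WT (8.31-fold higher in ck2ts, adjusted p = 4.55e-05). PRY1, for a secreted sterol-binding protein, stood at 328 ± 31.3, 39.1 ± 6.19 and 30.7 ± 7.91 CPM. UBX6, for a protein with a UBX domain, stood at 175 ± 8.12, 22.6 ± 1.15 and 18.1 ± 1.64 CPM. PEX18, a factor of peroxisomal import, and POX1, fatty acyl-CoA oxidase, were 9.77-fold and 6.93-fold higher in ck2ts. FMP16 was 12.3-fold higher there, and DDR2, a multistress gene, 10.0-fold with a wide spread between replicates (233 and 110 against 21.8 and 12.5 CPM). The DDR2 call ended without either spt6-7SA library (adjusted p = 0.280 and 0.324).

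**Figure D2:**
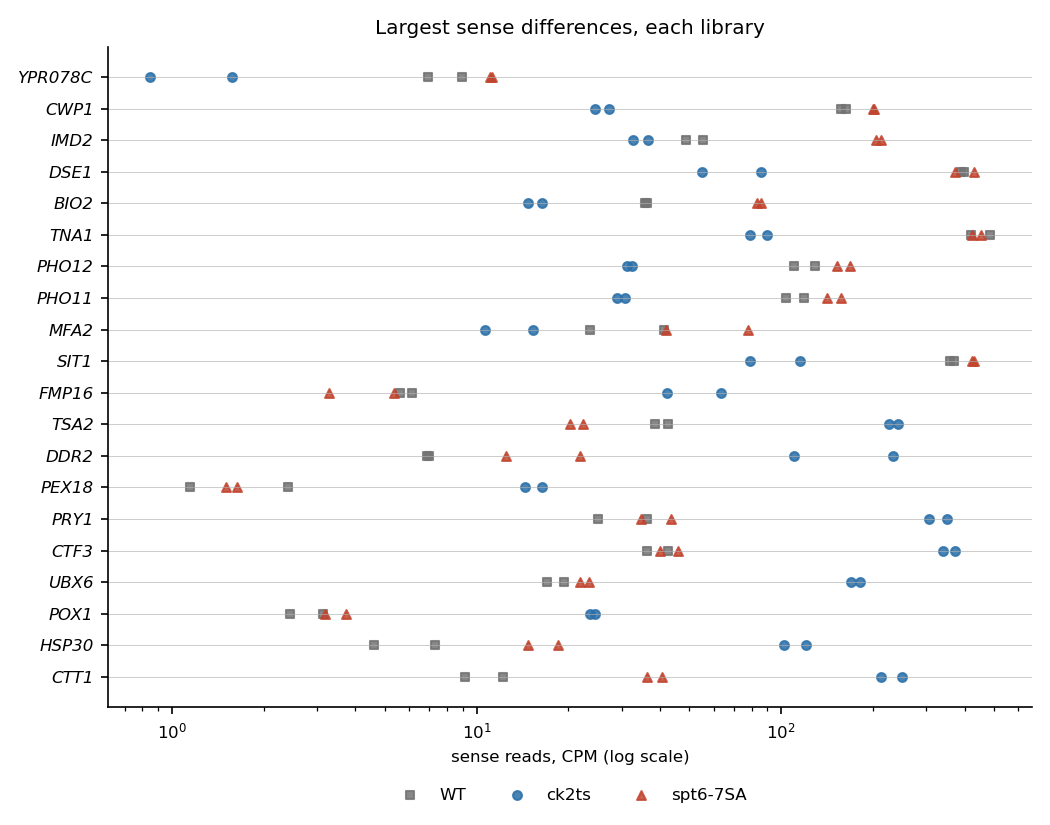
Sense level of the 10 genes with the largest difference in each direction, CPM on a log scale, 1 symbol per library (square WT, circle ck2ts, triangle spt6-7SA). Triangles lie right of circles for the upper 10 genes and left of them for the lower 10; WT lies beside spt6-7SA for CWP1, DSE1 and CTF3 and nearer to ck2ts for IMD2.

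Genes of the general stress response, which are induced through the transcription factors Msn2 and Msn4, were lower in spt6-7SA almost throughout. Of 46 tested, 41 were lower (89.1%), 0 higher and 5 did not pass, beside 26.5% lower and 25.1% higher of all genes. The median log2 difference was -1.23 (median over all genes -0.01). WT stood below both mutants at all 41, so both mutants were above WT and ck2ts more so. GLC3, the glycogen branching enzyme gene, gave 118 and 121 CPM in ck2ts against 21.5 and 20.4 in spt6-7SA (log2 difference -2.51, SE 0.09, adjusted p = 3.20e-05). TSL1, a regulatory subunit gene of trehalose synthase, gave 1240 and 1370 against 331 and 317 CPM, and GPH1, glycogen phosphorylase, 898 and 881 against 274 and 266. Among the members that did not pass, GAD1, glutamate decarboxylase, stood at 284 and 266 CPM in ck2ts against 250 and 244 CPM in spt6-7SA, with WT at 50.3 and 64.8.

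Msn2 and Msn4 bind the stress response element, and stretches of 60 bases upstream of the leading members are shown because they carry it (R64, strand of the gene, copies of AGGGG or its reverse complement CCCCT in capitals). They lie at chrVII:654236-654295 (plus strand) for CTT1, chrV:132718-132777 (plus strand) for GLC3, chrXIII:70244-70303 (plus strand) for TSL1 and chrXVI:860937-860996 (plus strand) for GPH1.
CTT1: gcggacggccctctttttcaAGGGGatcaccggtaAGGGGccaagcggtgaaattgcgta
GLC3: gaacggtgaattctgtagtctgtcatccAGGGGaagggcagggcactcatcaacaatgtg
TSL1: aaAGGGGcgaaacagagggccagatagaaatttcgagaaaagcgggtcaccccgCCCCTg
GPH1: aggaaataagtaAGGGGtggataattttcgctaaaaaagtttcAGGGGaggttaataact
Within the 500 bases before the start codon, searched on both strands, 44 of the 46 stress genes held the motif (95.7%), beside 34.5% of 5837 promoters. The list was drawn up from genes known to respond through this element, so the share describes the list and not the mutants.

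Chaperone genes induced by the heat shock factor Hsf1 were mixed. Of 30 tested, 17 were lower (56.7%), 4 higher (13.3%) and 9 did not pass (median -0.44). Among all genes, 26.5% were lower and 25.1% higher. HSP104, a disaggregase gene, gave 1510 and 1440 CPM in ck2ts against 812 and 767 in spt6-7SA, with WT at 285 and 439 CPM after the same time at 39 °C. HSP78, its mitochondrial counterpart, gave 349 and 377 against 117 and 135 CPM. HSP31, which encodes a stress-induced chaperone of the DJ-1 family, went the other way, with 56.8 and 50.8 CPM in ck2ts, 164 and 138 in spt6-7SA and 60 and 74.9 in WT (log2 difference 1.49, SE 0.12, adjusted p = 0.000361).

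Genes that make ribosomes showed the reverse of the stress genes. Of 66 ribosome biogenesis genes, 64 were higher in spt6-7SA (97.0%), 0 lower and 2 did not pass (median log2 difference 0.74). Among all genes, 25.1% were higher and 26.5% lower. WT stood above both mutants at all 64. SRP40, a nucleolar protein gene, gave 45.7 and 46.7 CPM in ck2ts, 138 and 145 in spt6-7SA, and 255 and 209 in WT (log2 difference 1.62, SE 0.08, adjusted p = 0.000144). NOP7, an assembly factor of the large subunit, gave 117 and 116, 307 and 279, and 514 and 413 CPM. Here too spt6-7SA stood between ck2ts and WT. Of 138 genes of cytoplasmic ribosomal proteins, 63 were higher (45.7%), 2 lower (1.45%) and 73 did not pass (median 0.30). RPS7B and RPL22B led them by p (log2 differences 0.96 and 0.93). Without spt6-7SA replicate 1 the number of higher genes was 30, and duplicated ribosomal protein genes may share reads.

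Upstream sequences of ribosome biogenesis genes carry a pair of short elements, PAC (GATGAG or CTCATC) and RRPE (AAAATTTT, its own reverse complement), in capitals below. Shown are NOP7 (chrVII:695257-695316, plus strand), RLP24 (chrXII:166290-166349, plus strand) and UTP5 (chrIV:1267250-1267309, plus strand), each on the strand of the gene; UTP5 is shown because it returns among the antisense differences.
NOP7: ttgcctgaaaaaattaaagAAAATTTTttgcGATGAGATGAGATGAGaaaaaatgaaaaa
RLP24: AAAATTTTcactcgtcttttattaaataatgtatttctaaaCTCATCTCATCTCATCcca
UTP5: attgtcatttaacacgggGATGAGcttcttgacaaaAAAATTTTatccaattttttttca
PAC copies overlap one another in NOP7 and RLP24. In the same 500-base windows PAC was found in 61 of 66 list genes (92.4%) and in 27.8% of all promoters, and RRPE in 55 (83.3%) and 12.7%. As before, the share describes how the genes are known to be regulated.

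RNA polymerase subunits followed the ribosome genes in part. Of 23 genes of RNA polymerase III and its factors, 15 were higher (65.2%), 4 lower (17.4%) and 4 did not pass (median 0.52). Among all genes, 25.1% were higher and 26.5% lower. RPC34, a subunit needed for initiation, gave 18.6 and 20.4 CPM in ck2ts against 54.7 and 55.3 in spt6-7SA, whereas MAF1, the repressor of this polymerase, gave 56.7 and 49.8 against 29.6 and 26.5. MAF1 and TFC7, a subunit of the initiation factor TFIIIC, were thus lower while RPC34, RPC40 and RPC31 were higher. For RNA polymerase I, 8 of 15 were higher (53.3%), 1 lower (6.67%) and 6 did not pass (median 0.32). RPA43 and RPA34 led the higher genes (log2 differences 0.95 and 0.86), and RPA14 was the lower one (-0.57).

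Phosphate genes, which respond to the transcription factor Pho4, were mostly higher in spt6-7SA. Of 25 tested, 15 were higher, 3 lower and 7 did not pass (median 0.33), beside 25.1% higher and 26.5% lower of all genes. The acid phosphatase gene PHO11 (YAR071W) gave 29.0 and 30.7 CPM in ck2ts, 157 and 141 in spt6-7SA, and 119 and 104 in WT. PHO12 (YHR215W), near-identical to it, gave 31.3 and 32.5, 168 and 152, and 129 and 110. Their reads may be shared, so they are 1 observation, though both are among the 15 (log2 difference 2.32 at both). PHM6, a phosphate-starvation gene, was higher by 1.92 on the log2 scale, though both mutants stood below WT there (2.94 and 2.98 CPM in ck2ts, 12.5 and 9.86 in spt6-7SA, 37.0 and 32.6 in WT). PHO89, the sodium-dependent phosphate transporter gene, went the other way: 37.5 and 25.3 CPM in ck2ts, 6.68 and 5.22 in spt6-7SA and 233 and 162 in WT.

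The upstream windows of PHO11 (chrI:225150-225209, plus strand) and PHO12 (chrVIII:551789-551848, plus strand) are shown because they are the same over 60 bases, like the coding regions that make the pair hard to separate; the Pho4 site CACGTG is in capitals.
PHO11: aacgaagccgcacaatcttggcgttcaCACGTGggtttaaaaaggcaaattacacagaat
PHO12: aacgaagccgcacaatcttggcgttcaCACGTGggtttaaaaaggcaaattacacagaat
The motif occurred in 15 of the 25 phosphate genes (60%) and in 6.30% of all promoters, counting both strands, on which it reads alike. Again, the share describes the list and not the mutants.

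Energy and nitrogen metabolism lists held more lower than higher genes, beside 26.5% lower and 25.1% higher of all genes tested. Of 39 nuclear genes of the respiratory chain, 29 were lower, 1 higher and 9 did not pass (median -0.55). CYT1, cytochrome c1, gave 62.8 and 71.1 CPM in ck2ts, 12.3 and 14.1 in spt6-7SA, and 6.44 and 8.19 in WT. SDH2, of succinate dehydrogenase, gave 61.3 and 83.7, 17.1 and 18.1, and 6.97 and 9.59. These nuclear transcripts were high in the libraries in which 16 of 17 mitochondrially encoded genes were low. Of 27 genes of gluconeogenesis and fatty acid oxidation, 14 were lower, 3 higher and 10 did not pass (median -0.58). Beside POX1, MLS1, malate synthase, stood at 17.3 and 17.2 against 3.59 and 3.36 CPM, and ADR1, an activator of such genes, at 332 and 367 against 114 and 122. Genes of nitrogen and proline use gave 16 lower, 2 higher and 7 not passing of 25 (median -0.74). GDH1, glutamate dehydrogenase, was lower by 1.63 on the log2 scale, and DAL3, of allantoin use, was higher by 1.89. A mixed group was that of the tricarboxylic acid cycle and its retrograde control, with 6 higher (26.1%) and 11 lower (47.8%) of 23.

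Amino acid synthesis genes were mostly higher in spt6-7SA, at 29 of 48, with 7 lower and 12 not passing (median 0.40). LYS1, of lysine synthesis, gave 48.5 and 43.0 CPM in ck2ts, 156 and 150 in spt6-7SA, and 23.0 and 32.4 in WT, so that spt6-7SA was the high group. HIS6 and TRP4, of histidine and tryptophan synthesis, were higher by 1.58 and 1.38. HIS3, a deleted marker in spt6-7SA, is among the 7 lower genes and is no measure of the pathway. The Gcn4 site TGACTC or GAGTCA was found upstream of 35 of the 48 genes (72.9%) and of 12.8% of all. That share describes how the listed genes are known to be regulated and not the mutants. In methionine and sulfur metabolism, 7 were higher and 8 lower of 27 (25.9% and 29.6%), near the 25.1% and 26.5% of all genes: MET17 and MET6, of methionine synthesis, were higher by 1.48 and 1.99, and SUL1, a sulfate permease gene, was lower by 2.28. For MET17 and MET6, WT lay nearer to ck2ts.

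**Figure D3:**
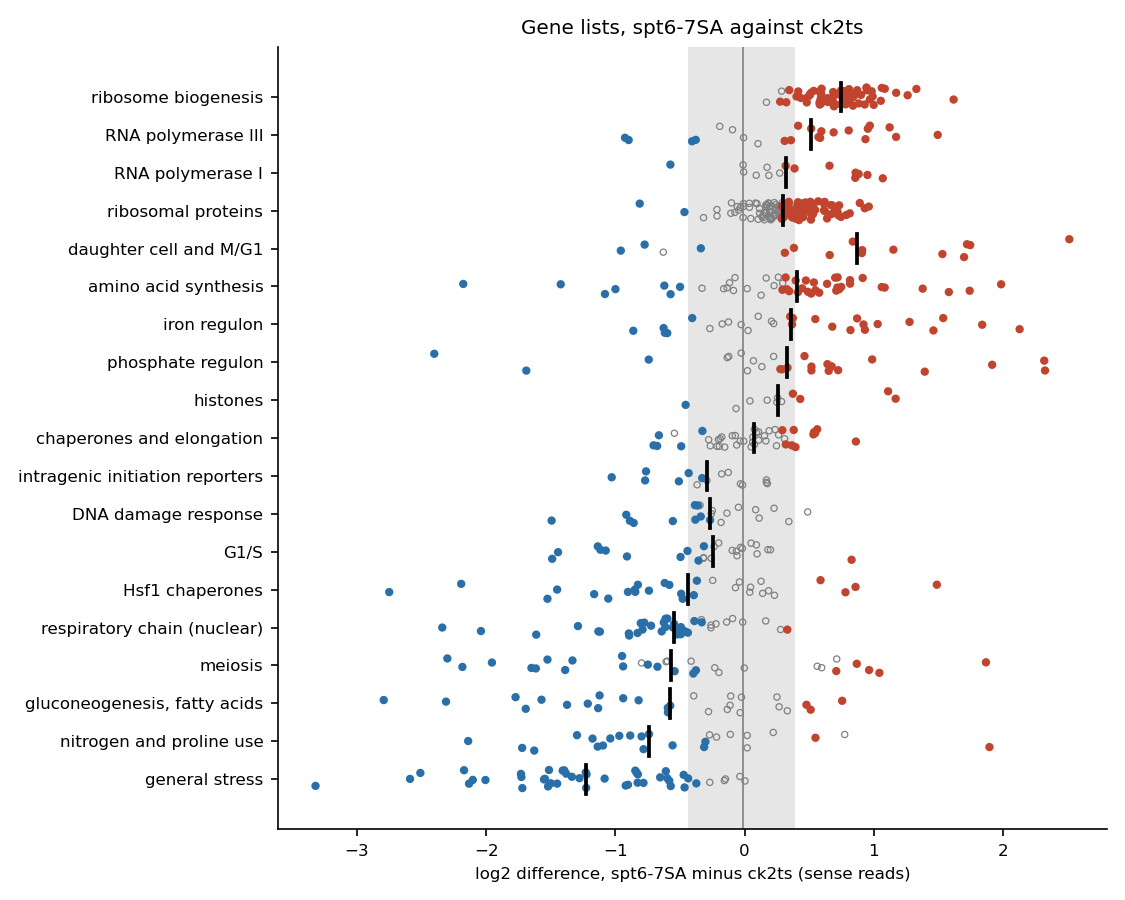
Log2 difference in sense reads (spt6-7SA minus ck2ts, x axis) of each tested member of 19 gene lists. Filled points passed the test, open points did not, black bars are list medians, and the grey band runs from the lower to the upper quartile of all 6738 genes (-0.43 to 0.38). The ribosome biogenesis median is at 0.74 and the general stress median at -1.23.

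Cell cycle genes are given by phase, and no difference between phases was tested. Of 16 genes of daughter cells and the M/G1 boundary, 12 were higher in spt6-7SA, 3 lower and 1 did not pass (median 0.87). The counts by phase stand beside 25.1% higher and 26.5% lower of all genes tested. DSE2 and SCW11, which degrade the septum between mother and daughter, stood at 84.6 and 103 against 334 and 283 CPM and at 109 and 111 against 431 and 307. Of 26 G1/S genes, 10 were lower (38.5%, beside 26.5% of all genes), 1 higher and 15 did not pass. The G1 cyclin gene CLN2 stood at 384 and 447 CPM in ck2ts against 156 and 140 in spt6-7SA, and CLN1 at 174 and 200 against 73.2 and 64.4. Of 17 G2/M genes, 9 were lower (52.9%), 2 higher (11.8%) and 6 did not pass. CLB2, a mitotic cyclin gene, stood at 103 ± 2.76 CPM in ck2ts against 53.4 ± 3.70 CPM in spt6-7SA. In bulk samples, fewer cells in a phase and less RNA per cell cannot be told apart.

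The counts in this paragraph stand beside 25.1% higher and 26.5% lower of all genes tested. Pheromone response genes gave 11 higher (47.8%), 5 lower (21.7%) and 7 not passing of 23. FUS3, the mating MAP kinase gene, gave 18 and 17.2 CPM in ck2ts against 68.0 and 60.7 in spt6-7SA. STE2, the receptor gene of the a-specific markers, gave 99.5 and 107 against 354 and 338. Meiotic genes, repressed in growing haploid cells, gave 15 lower, 5 higher and 10 not passing of 30. HOP1, of the meiotic chromosome axis, gave 41.3 and 34.3 CPM in ck2ts against 7.72 and 7.62 in spt6-7SA, with WT at 6.13 and 6.95. DNA damage genes gave 10 lower, 0 higher and 11 not passing of 21, with RNR3, of ribonucleotide reductase, at 151 and 148 against 53.5 and 52.9 CPM. Iron genes gave 15 higher, 5 lower and 8 not passing of 28. FTR1, the iron permease gene, gave 112 and 109 CPM in ck2ts, 292 and 316 in spt6-7SA, and 472 and 495 in WT.

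Chromatin and elongation genes were examined because Spt6 acts beside their products. Of 44 genes of histone chaperones and transcription elongation, 10 were higher, 5 lower and 29 did not pass (median 0.07), so that 34.1% passed, beside 51.6% of all genes. SET2, the H3K36 methyltransferase gene, gave 54.4 and 53.9 CPM in ck2ts against 80.7 and 76.4 in spt6-7SA, and CTR9, of the Paf1 complex, 88.7 and 98.1 against 132 and 138. CHD1, a chromatin remodeller gene, was lower by 0.66 on the log2 scale. Among 11 histone genes, 4 were higher, 1 lower and 6 did not pass (45.5% passed). HTB2 and HTA2, a divergent pair, gave 134 and 158 against 292 and 338 CPM and 22.2 and 28.6 against 52.0 and 62.2. The copies HTA1 and HTB1 did not pass (log2 differences 0.17 and 0.29), and copies of a histone may share reads.

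Of 9 genes with promoters known from other work to be repressed through Spt6, 4 were higher, 4 lower and 1 did not pass. That is 44.4% in each direction, beside 25.1% higher and 26.5% lower of all genes. SER3, a serine synthesis gene held off by transcription across its promoter, gave 346 and 261 CPM in ck2ts, 1230 and 1170 in spt6-7SA, and 90.7 and 94.5 in WT (log2 difference 1.98, SE 0.17, adjusted p = 0.000413). Both mutants were above WT there, and spt6-7SA the more so. PHO5 and SUC2, the main acid phosphatase and invertase genes, were higher by 0.99 and 0.38, with WT above both mutants. IMD2, described above, was the other higher gene and had the largest rise of the list (log2 difference 2.59). CTT1, HSP26, GAL1 and ADH2 were lower, and CYC1 did not pass (-0.26). CTT1 and HSP26 are also members of the general stress and Hsf1 lists above, so they are no separate observation. Genes used as readouts of initiation inside the transcribed region gave 6 lower (40.0%), 0 higher and 9 not passing of 15 on the sense strand. STE11, the best known of them, gave 89.7 and 81.2 CPM in ck2ts, 52.0 and 48.2 in spt6-7SA, and 39.4 and 39.5 in WT. FLO8, another classic reporter, gave 87.9 and 68.9, 64.9 and 63.2, and 50.9 and 46.8, and did not pass (adjusted p = 0.0988).

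Antisense reads were more abundant in ck2ts than in spt6-7SA at many genes, and the gap was widest over long genes. Over 6035 genes that overlap no annotated gene on the other strand, antisense reads made up 2.13% and 1.91% of reads in ck2ts (95% Wilson intervals 2.127 to 2.134 and 1.906 to 1.913) and 1.739% and 1.815% in spt6-7SA (1.736 to 1.743 and 1.811 to 1.818). WT had 1.397% and 1.494%. The shares of the mutants did not overlap, at 2.02% ± 0.156 and 1.78% ± 0.0537, but with 2 libraries against 2 the exact two-sided permutation test gives p = 0.333, the smallest it can. Intervals cover counting error only. As a median over 5804 genes, the share was 3.561% and 2.983% in ck2ts, 2.116% and 2.172% in spt6-7SA, and 1.5% and 1.634% in WT.

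Gene by gene, with antisense counts scaled by sense library size, 693 of 5422 genes (12.8%) had more antisense reads in spt6-7SA and 1975 (36.4%) fewer, 395 and 1445 of them at least 2-fold (7.29% and 26.7%). In either direction 49.2% passed, and the median log2 difference was -0.36. With antisense counts scaled by their own library size and TMM factors, which sets that median to 0.00, 1373 were higher and 1466 lower, so the share of calls that were higher was 26% in one scaling and 48.4% in the other. Without spt6-7SA replicate 1 the main counts were 369 and 1168, and without spt6-7SA replicate 2 they were 351 and 1282. WT stood below both mutants at 1215 (61.5%) of the 1975 lower genes and nearer to spt6-7SA at 498 (25.2%). At the 693 higher genes, WT stood below both at 210 (30.3%) and above both at 149 (21.5%). The test of antisense against sense reads within the same libraries gave 903 (16.7%) higher and 1993 (36.8%) lower, 53.4% in all, with 13.1% and 30.2% at least 2-fold. Genes that moved oppositely on the strands included 554 with higher sense and lower antisense reads and 260 with the reverse, of 5351 tested on both; 466 were lower and 159 higher on both.

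The share of genes with fewer antisense reads in spt6-7SA grew with gene length. It was 15% of 917 genes under 500 bp, 27.1% of 1297 genes from 500 bp, 41.8% of 2022 genes from 1000 bp, 54.6% of 975 genes from 2000 bp and 51.7% of 211 genes of 4000 bp or more. The median log2 difference went from 0.01 in the shortest class to -0.78 and -0.73 in the longest. The median number of antisense reads per library also grew, from 41.2 to 121, so the power of the test was not equal across classes. With antisense scaling the medians were 0.37, 0.17, -0.12, -0.41 and -0.37, in nearly the same order but above 0 for genes under 1000 bp. Genes whose nearest opposite-strand neighbour converged within 300 bp had fewer antisense reads at 44.7% of 1904. With a divergent neighbour within 300 bp the share was 34.3% of 560. Where the nearest neighbour, of either orientation, lay beyond 1000 bp, it was 26.8% of 1352.

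Along the gene, the antisense reads of the 1459 lower genes with 1 exon and at least 1000 bp were spread over both ends. Of antisense reads in the 5' or 3' part of a gene, the median share in the 3' part was 46.2% and 50.0% in ck2ts, 40.8% and 41.0% in spt6-7SA, and 66.7% and 63.5% in WT. At genes that did not pass it was 50.0% and 56.2%, 44.4% and 43.8%, and 65.6% and 60%. At the 320 genes with more antisense reads in spt6-7SA it was 47.0% and 50.0%, 38.3% and 36.7%, and 52.0% and 50.0%. Both mutants stood below WT in the first 2 sets of genes, while in the third ck2ts replicate 2 equalled WT replicate 2.

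**Figure D4:**
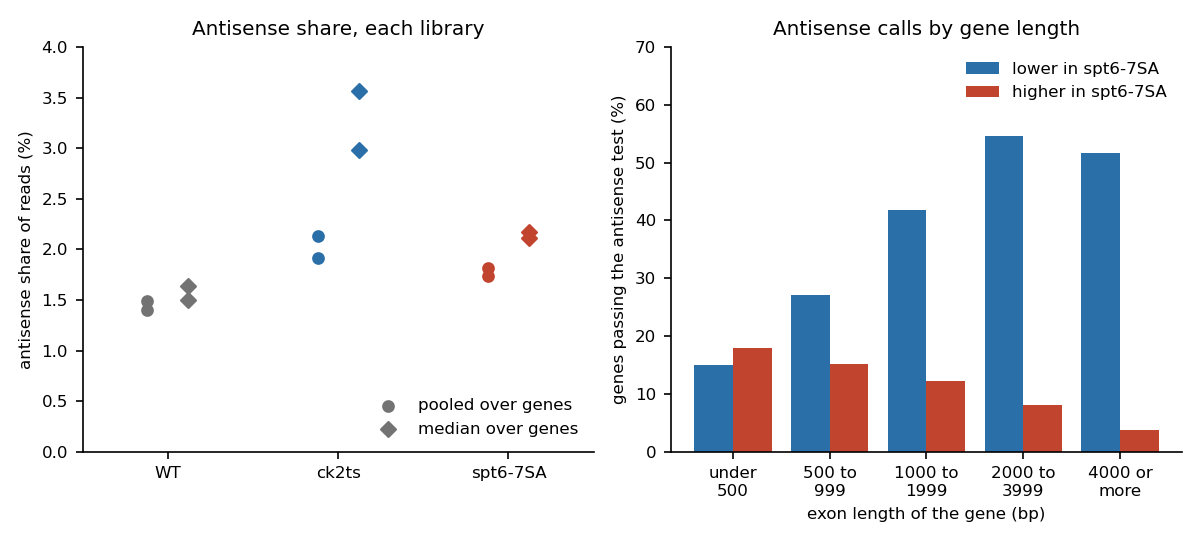
Left, antisense share of reads (percent) in each library, pooled over 6035 genes (circles) and as a median over 5804 genes (diamonds). Right, percent of tested genes with fewer (blue) or more (red) antisense reads in spt6-7SA by exon length in bp; the share with fewer is 15% under 500 bp and 54.6% from 2000 bp.

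Among genes with at least 10 antisense CPM in a mutant and no overlap between the mutants, the 6 largest antisense differences in each direction included altered loci, which are no measure of antisense transcription. CKA2 gave 1690 and 1674 antisense reads in ck2ts against 19 and 24 in spt6-7SA, at the locus marked with NAT in ck2ts. LEU2 gave 0 and 1 against 724 and 817, as its sense reads were also missing from ck2ts. UTP5 (YDR398W, chrIV:1267471-1269402), a component of the small-subunit processome whose promoter is printed above, gave 40.2 and 27.9 antisense CPM in ck2ts, 1.45 and 1.48 in spt6-7SA, and 1.08 and 1.45 in WT. This was 23.2-fold lower (log2 difference -4.54, SE 0.21, adjusted p = 7.03e-11), while its sense level was higher by 0.58. SSF2, of large-subunit assembly, gave 14.7 and 15 against 0.618 and 0.669, and HEL2, a ubiquitin ligase of ribosome quality control, 22.3 and 19.0 against 1.06 and 1.21. SSF2 has a close paralog, SSF1, with which it may share reads. DUR3, a urea transporter gene (14.2 and 7.55 against 0.407 and 0.393), and PMD1, a regulator of sporulation (23.5 and 16.8 against 1.54 and 1.90), completed the lower set. In UTP5, SSF2, HEL2 and PMD1, the WT mean lay below both mutants, close to spt6-7SA.

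POX1 had the largest antisense gain in spt6-7SA above that minimum level, outside altered loci. Below it, 7 of 8 mitochondrially encoded genes tested also passed as higher on the antisense strand; these 7 had 0 antisense reads in ck2ts and at most 1.32 antisense CPM in spt6-7SA. It gave 1.21 and 0.753 antisense CPM in ck2ts, 11.7 and 10.8 in spt6-7SA, and 7.45 and 6.41 in WT (log2 difference 3.50, SE 0.23, adjusted p = 4.44e-09), while its sense reads went the other way. Antisense reads made up 4.88% and 2.99% of its reads in ck2ts, 78.6% and 74.3% in spt6-7SA, and 75.3% and 67.1% in WT. UPS3, of the mitochondrial Ups family (2.23 ± 0.0872 and 11.6 ± 0.945), APE1, vacuolar aminopeptidase I (8.46 ± 3.33 and 36.0 ± 1.08), and NCW2, a cell wall protein gene (3.89 ± 0.194 and 14.2 ± 0.255), showed the same exchange, with sense reads lower by 1.46, 1.05 and 1.92 on the log2 scale. LOA1, for an enzyme of lysophosphatidic acid acylation, was 5.78-fold higher on the antisense strand without a sense difference that passed (0.02).

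**Figure D5:**
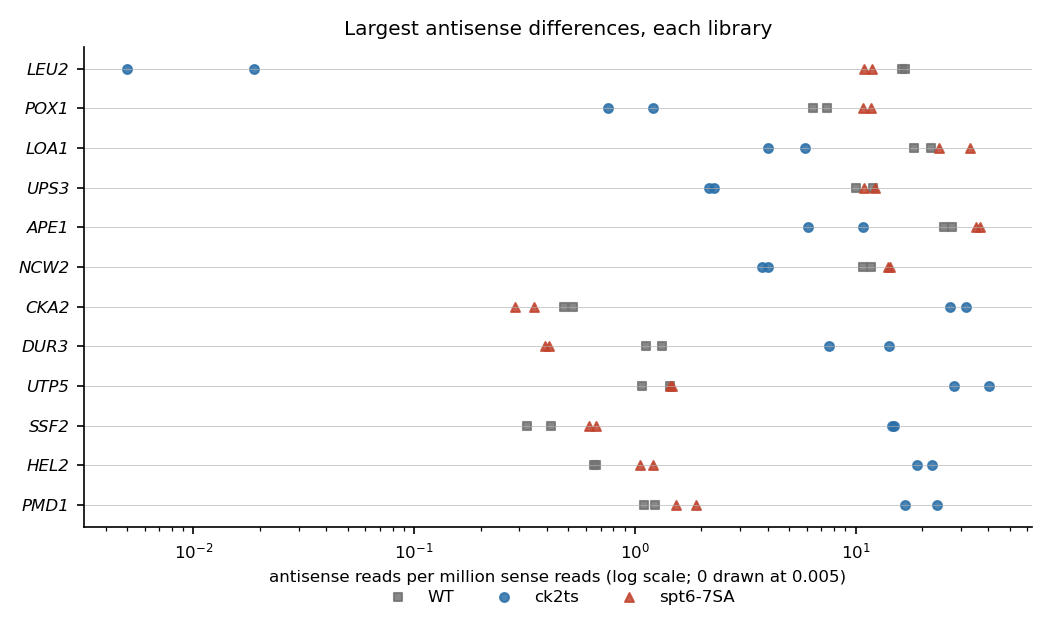
Antisense CPM, on a log scale, of the 6 genes with the largest difference in each direction, 1 symbol per library (square WT, circle ck2ts, triangle spt6-7SA; 0 is drawn at 0.005). CKA2 and LEU2 are altered loci; at UTP5 the ck2ts libraries stand at 27.9 and 40.2 and the others between 1.08 and 1.48.

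In the test of antisense against sense, the largest gains in spt6-7SA after POX1 (log2 difference 6.32) were at YIL168W and SDL1, which lie end to end on chromosome IX (29032 to 29415 and 29416 to 30048). Antisense reads were 14.8% and 10.6% of reads at YIL168W in ck2ts, 84.3% and 82.8% in spt6-7SA, and 11.2% and 6.76% in WT. At SDL1 they were 13.2% and 7.01%, 79.1% and 71.6%, and 8.98% and 2.12%. Here spt6-7SA was the group apart from WT, unlike at POX1. FMP16 followed with 4.54. The largest losses outside CKA2 were SSF2, UTP5 and HEL2 (-5.26, -5.10 and -5.0).

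By gene group, antisense differences were uneven. The scaling matters here, so counts with antisense library size follow each count with sense library size. Of 54 ribosome biogenesis genes, 31 were lower and 4 higher in spt6-7SA (23 and 7 with antisense scaling), beside 36.4% lower and 12.8% higher of all genes (27.0% and 25.3%). Of 33 genes of histone chaperones and elongation, 20 were lower and 1 higher (15 and 4): SGV1, a kinase of elongation, gave 5.88 and 4.77 against 0.784 and 0.771 antisense CPM. Of 13 readout genes of initiation inside genes, 9 were lower and 1 higher (6 and 2). OMS1 gave 3.40 and 3.69 in ck2ts against 0.482 and 0.465 in spt6-7SA, and STE11 1.42 and 0.791 against 0.558 and 0.494. FLO8 gave 7.68 and 6.48 against 5.28 and 4.43, with WT at 1.09 and 1.26, so both mutants were above WT there. Without spt6-7SA replicate 1 these counts of lower genes were 20 of 57, 10 of 33 and 4 of 13, and without spt6-7SA replicate 2 they were 21 of 57, 13 of 33 and 6 of 13.

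Glycolysis and heat shock genes went the other way. Of 17 glycolytic genes, 13 had more antisense reads in spt6-7SA and 2 fewer (14 and 2 with antisense scaling). Of all 5422 genes tested, 12.8% had more and 36.4% fewer (1373 and 1466 genes with antisense scaling). TDH3, glyceraldehyde-3-phosphate dehydrogenase, gave 0.779 and 0.678 in ck2ts, 2.71 and 2.73 in spt6-7SA, and 3.74 and 7.32 in WT. Without spt6-7SA replicate 1 or 2 the number of higher genes was 8 or 6. Of 27 Hsf1 chaperone genes, 14 had more and 3 fewer (17 and 1). Some of the 14 were near the floor. HSP78 gave 0.143 and 0.0188 antisense CPM in ck2ts against 0.347 and 0.378 in spt6-7SA, and HSP82 7.0 and 3.13 against 12.4 and 11.0. Beside the sense level of TDH3, 13400 and 14400 CPM in ck2ts against 14100 and 12000 CPM in spt6-7SA, its antisense levels are small.

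A shift of sense reads toward the 3' end of genes, another possible sign of starts inside genes, passed the test at few genes. Of 3468 genes of at least 1000 bp, 22 (0.634%) gained 3' over 5' reads in spt6-7SA and 18 (0.519%) lost them by edgeR, 1.15% in all and 0.606% and 0.490% at least 2-fold, with 345 at an unadjusted p under 0.05 and a median log2 difference of 0.05. Of reads in the 5' or 3' part, 60.8% and 62.8% lay in the 3' part in ck2ts, 62.0% and 63.9% in spt6-7SA, and 59.7% and 60.9% in WT. The groups overlap, and replicate 2 was the higher in each. In simulated counts the 3' against 5' test found 16% of 1.5-fold and 76% of 2-fold changes, so smaller shifts could go unseen. With at least 100 reads in each part, 2 genes gained and 3 lost, and without ck2ts replicate 1 the counts were 3 and 2.

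The genes that passed were single cases. The part of altered loci near them, the replaced SPT6 included, was not tested. DAM1, a kinetochore gene, had 197 and 184 reads in its 3' part in ck2ts and 2843 and 2761 in spt6-7SA, against 46 and 26 and 50 and 26 in its 5' part (log2 difference 3.80, SE 0.38, adjusted p = 0.0208). WT had 234 and 159 in the 3' part. MET22, a nucleotidase gene, had 77.7% and 77.3% of such reads in the 3' part in ck2ts, 92.8% and 93.7% in spt6-7SA, and 67.2% and 70.7% in WT, through a loss of 5' reads from 243 and 203 to 39 and 41. MSE1 and SEN54, of mitochondrial tRNA charging and of tRNA splicing, gained by 2.25 and 1.92. In the other direction LYS2 had 53.8% and 63.2% in ck2ts, 22.3% and 27.1% in spt6-7SA, and 16.7% and 23.8% in WT, although all strains bear the same lys2 label. FAA2, which overlaps BUD25 on the other strand, and GUP2 lost 3' over 5' reads (log2 differences -2.30 and -2.29), as did Q0255 of the mitochondrial genome (-2.26). The calls of MSE1, SEN54, FAA2, GUP2 and Q0255 ended without ck2ts replicate 1 (adjusted p from 0.0655 to 0.0733), and those of DAM1, MET22 and LYS2 did not.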

How the data were processed

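Total RNA depleted of rRNA was sequenced as stranded single-end libraries. Per the submitters' processing notes, reads were processed with Trimmomatic, BWA and SAMtools on build R64-1-1 with Ensembl 77; neither tool versions nor the extent of the 5' and 3' parts is stated there. The authors deposited whole-number read counts per exon, sense and antisense, for the gene and for its 5' and 3' parts, with no normalization. Here the 7553 exon rows were summed to 7126 genes. Antisense tests used the 6035 genes with no overlapping gene on the other strand, scaled by sense library sizes. Each comparison used edgeR 4.0.16 (R 4.3.3; quasi-likelihood test, TMM, filterByExpr with a minimum count of 10) on 4 libraries, with Benjamini-Hochberg adjusted p of at most 0.05. Strand and part comparisons were interaction terms with a library term, and part tests needed genes of at least 1000 bp. Scripts were tested on simulated data. Replicates of each mutant differed beyond counting noise (chi-square per degree of freedom 193 and 111), so none was a duplicate deposit.

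Named genes are the 10 (sense), 6 (antisense) or 4 (strand and part interactions) largest passing differences in each direction above a minimum level, the altered genes, and the 2 to 4 members of each list with the smallest p; other members named were chosen after their values were seen. The members and lists were chosen with earlier results of these data known. Alternatives were DESeq2 1.42.0, other scaling and filters, all 6 libraries, a fit blocked by replicate number, and fits without 1 library.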

Additional observations from a re-analysis of the deposited data

How the results depend on the processing

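Single genes were followed under the alternatives only for the 48 ranked sense, antisense, strand and part results. Other genes named above were not, and the named-gene values below cover these 48 results only. None of the 48 changed direction under the alternatives run. The balance of sense calls did, with 1880 higher and 1673 lower when all 6 libraries were fitted, as did the median antisense difference of genes from 500 to 1000 bp, -0.18 with sense and 0.17 with antisense scaling. Without each library in turn, sense genes higher in spt6-7SA numbered 1387 to 1678 and lower 1332 to 1771, antisense higher 351 to 993 and lower 1168 to 2465, antisense against sense higher 531 to 1058 and lower 1248 to 2316, and 3' against 5' higher 3 to 44 and lower 2 to 24. The difference in antisense share ranged from -0.353 to -0.133 percentage points, and as a median over genes it was -1.13. Antisense scaling by its own library size gave 1373 higher genes, and a minimum of 100 reads per part gave 2 and 3 genes. DESeq2 gave 1745 and 1757 sense genes and 531 and 1579 antisense genes. Of 463 named-gene values under alternatives, 449 kept their side of the threshold and 14 did not pass; of 300 list counts, 287 stayed within 1.5 times, and of 83 overall counts and shares, 15 moved further. With the replicate number as a block, the sense counts were 2190 and 2318 and the antisense counts 742 and 2013. Same-numbered libraries correlated at 0.441 on the sense and 0.0716 on the antisense strand, over 2 pairs only, so the numbers are not shown to pair the samples. For the interaction results the block was not run. Their library term takes up the level of each library, but not a difference between replicate numbers in strand or part. Antisense precision is limited by medians of 41.2 to 121 reads per gene across length classes.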

Other observations

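Further gene lists are given beside the 25.1% of all genes that were higher and the 26.5% that were lower on the sense strand. Of 119 nuclear tRNA genes tested, 30 were lower in spt6-7SA (25.2%), 1 higher and 88 did not pass (median log2 difference -0.82); tRNAs are poorly captured in such libraries and their copies share reads. Of 76 snoRNA genes, 14 were higher (18.4%) and 5 lower (6.58%). Of 34 proteasome genes, 3 were higher and 2 lower on the sense strand, while 11 of 33 had more antisense reads in spt6-7SA and 1 fewer (15 and 1 with antisense scaling), beside 12.8% more and 36.4% fewer of all genes (25.3% and 27.0%). Of 33 genes of a general cell wall list, 11 were lower (33.3%) and 1 higher. YPS3, a cell-surface protease gene, gave 518 and 534 CPM in ck2ts, 107 and 112 in spt6-7SA, and 117 and 125 in WT. Of 14 drug efflux genes, 6 were lower (42.9%) and 1 higher on the sense strand, and 9 had fewer antisense reads and 0 more by edgeR (6 and 1 with antisense scaling). None of 8 silencing genes passed by edgeR (median -0.10).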
